A study of Homo sapiens and Mus musculus with 21 samples.

Results

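Wnt signals are received at the cell surface by a Frizzled protein together with one of the co-receptors LRP5 or LRP6, and the transcripts of 10 of these receptor genes were followed through tumours grown from 2 human colorectal carcinoma lines. The genes are LRP5, LRP6 and FZD1 to FZD8. They were taken by symbol from the human table, whose 58336 genes were joined to GENCODE release 29 names. All 10 were in the table, and 8 of them passed the filter for testing, which kept 22981 genes with at least 1 TPM (a level corrected for transcript length and for the library's total) in at least 3 libraries. FZD4 and FZD8 did not pass, so they are described by their levels alone. LRP5, LRP6, FZD3 and FZD6 reached 1 TPM in all 18 libraries, whereas FZD1, FZD2 and FZD7 passed the filter through SW480 libraries only.

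SW480 and SW620 are established lines from a primary tumour and from a lymph node metastasis of the same donor, and both carry a truncated APC protein. Cells were injected into the caecum wall of NSG mice, which lack mature T, B and natural killer cells, and the caecum was collected after 28 days. Libraries were made from its RNA by the Smart-seq2 protocol, which copies whole transcripts. The RNA therefore came from whole caecum, and the values used here are those of human transcripts only. There were 6 groups of 3 libraries. SW620 LRP6KO cells had been transfected with an LRP6 CRISPR construct and a plasmid carrying eGFP and puromycin resistance, selected with puromycin, and sorted by flow cytometry for low LRP6 protein; the sources used here do not say whether they were a clone or a pool. SW620 Cas9 cells were their control, given a mock CRISPR transfection and sorted. SW620 dnLEF1 cells and SW480 dnLEF1 cells carried dominant negative LEF1 delivered by lentivirus, a form of the transcription factor that binds Wnt target genes without recruiting beta-catenin, and SW620 Mock and SW480 Mock cells had a mock lentiviral transduction; no promoter for the construct is given in the sources used here. Nothing in the labels says that the 3 libraries of a group came from separate mice, so p-values measure the spread between these libraries, which may be technical.

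At the membrane a Frizzled binds the Wnt protein through its extracellular cysteine-rich domain, and LRP5 or LRP6 joins it to form the complex that is phosphorylated on the co-receptor tail, recruits Axin and Dishevelled and lets beta-catenin accumulate. Frizzleds also act without the co-receptors in planar cell polarity and other pathways that do not use beta-catenin. Sequence groups the family into FZD1, FZD2 and FZD7, into FZD5 and FZD8, into FZD3 and FZD6, and into FZD4 with FZD9 and FZD10. In the intestinal epithelium RNF43 and ZNRF3 remove Frizzleds from the surface, and R-spondins acting through LGR receptors oppose them.

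On GRCh38 the co-receptor gene LRP5 lies on chromosome 11 from 68312609 to 68449275 on the plus strand, and LRP6 lies on chromosome 12 from 12116025 to 12267012 on the minus strand. FZD1 is on chromosome 7 (91264364 to 91271326, plus), FZD2 on chromosome 17 (44557459 to 44559570, plus) and FZD4 on chromosome 11 (86945679 to 86955391, minus). FZD5 is on chromosome 2 (207762586 to 207769563, minus), FZD7 on chromosome 2 (202034587 to 202038445, plus) and FZD8 on chromosome 10 (35638249 to 35642278, minus). These spans are those of the GENCODE 29 genes, and the level reported for each is summed over its transcripts.

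The sequence upstream of the start is shown for FZD1, which was lower in SW620 libraries, for FZD5, which was higher there, and for LRP5, whose levels overlapped between the lines. Each run is RefSeq sequence on GRCh38.p14, written 5′ to 3′ on the gene's own strand, and ends just before the annotated start (for FZD1, just before the GENCODE 29 start). They cover chr7:91264183-91264363 (plus strand) for FZD1, chr2:207769907-207770156 (minus strand) for FZD5 and chr11:68312341-68312590 (plus strand) for LRP5. Capitals mark CTTTG, the core letters of the element bound by LEF1 and the TCF factors.
FZD1: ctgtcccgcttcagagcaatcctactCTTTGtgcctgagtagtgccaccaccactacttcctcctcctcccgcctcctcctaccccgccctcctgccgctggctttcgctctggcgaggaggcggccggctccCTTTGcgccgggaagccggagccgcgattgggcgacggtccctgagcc
FZD5: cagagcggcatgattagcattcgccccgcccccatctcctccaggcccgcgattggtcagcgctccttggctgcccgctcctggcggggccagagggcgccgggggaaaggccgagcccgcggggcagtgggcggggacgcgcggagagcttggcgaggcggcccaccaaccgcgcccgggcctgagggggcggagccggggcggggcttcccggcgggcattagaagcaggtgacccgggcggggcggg
LRP5: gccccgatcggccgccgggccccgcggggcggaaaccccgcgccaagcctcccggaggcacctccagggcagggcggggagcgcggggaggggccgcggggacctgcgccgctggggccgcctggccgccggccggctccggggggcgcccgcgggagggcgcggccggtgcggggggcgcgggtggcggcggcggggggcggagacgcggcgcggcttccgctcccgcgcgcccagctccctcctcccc
The FZD1 run held 2 matches to CTTTG, and the other runs held none on either strand (CTTTG or CAAAG). The runs hold 181 bases for FZD1 and 250 for FZD5 and LRP5. In the windows of 300 bases that they come from, the counts were the same, and the windows of FZD4 and FZD8 held none. Of all 35116 RefSeq promoter windows of 300 bases, 47.5% held at least 1 such match. The windows are rich in G and C, at 65.7% for FZD1, 77.0% for FZD5 and 86.7% for LRP5, against a median of 58.7% over all windows. A match is a description of these letters only.

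The 8 epithelial markers EPCAM, CDH1, KRT8, KRT18, KRT19, VIL1, CDX2 and CLDN4 summed to between 8883 and 21780 TPM in a library. The sum was 8883 to 10954 TPM in SW620 dnLEF1 and 15372 to 17314 TPM in SW620 Mock libraries. Between these groups all 8 markers were lower (median log2 difference -0.65 against -0.12 over all genes tested). KRT19 alone passed the test there (log2 difference -0.89, limma adjusted p = 0.0060, lost in some of the alternatives). The part of this in the receptor values was not tested. CDX2, an intestinal transcription factor, was below 1 TPM in all 3 SW620 dnLEF1 libraries, and averaged 1.95 ± 0.57 TPM in SW620 Mock and 40.6 ± 6.05 TPM in SW480 Mock tumours (log2 difference -3.83, limma adjusted p = 5.92e-08). CLDN4 was also lower in SW620 Mock tumours (log2 difference -0.95, limma adjusted p = 5.18e-05). VIL1 went the other way, at 126 ± 9.37 TPM in SW620 Mock and 79.6 ± 14.6 TPM in SW480 Mock tumours (limma adjusted p = 0.0169, lost in some of the alternatives). In SW480 dnLEF1 against SW480 Mock tumours 2 of the 8 markers were called, both lower, beside 2.23% of all genes called. CDX2 averaged 12.7 ± 3.11 TPM in SW480 dnLEF1 tumours (log2 difference -1.62, limma adjusted p = 0.00696), and KRT19 differed by -0.66 (limma adjusted p = 0.0147). Both calls were lost in some of the alternatives, and 4 of the 8 differences were above 0. The 23 markers of fibroblasts, muscle, vessels, leukocytes and enteric nerve cells, chosen as cell types other than carcinoma, summed to between 18.4 and 54.6 TPM. Some of them separated the lines. LUM was at 2.21 to 10.4 TPM in SW620 and at most 0.34 TPM in SW480 libraries. DES was at 0.68 to 2.85 TPM in SW620 and 5.04 to 12.5 TPM in SW480 libraries. Which cells these transcripts came from was not tested. Between 24665 and 34709 genes were above 0 in a library, and the highest numbers were in SW480 Mock replicate 2 and SW620 LRP6KO replicate 1. Depth cannot be recovered from TPM, so no counting interval is given. LEF1, whose transcript includes the introduced form, was at 18.2, 22.5 and 24.0 TPM in SW620 dnLEF1 libraries, against 0.30, 0.80 and 0.59 TPM in SW620 Mock libraries. It was at 99.4, 50 and 47.2 TPM in SW480 dnLEF1 libraries, against 14.8, 13.3 and 5.09 TPM in SW480 Mock libraries. In caecum RNA, fewer tumour cells of a kind and less RNA per cell cannot be told apart, and a human TPM is a share of the human transcripts.

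LRP5 and LRP6 were the most abundant of the 10 transcripts in every group. LRP5, the co-receptor best known for its part in bone mass and retinal vessels, was at 15.5, 21.1 and 15.8 TPM in SW620 LRP6KO, 20.0, 19.0 and 14.7 in Cas9, 30.4, 19.2 and 18.5 in dnLEF1 and 14.8, 18.5 and 26.4 in Mock libraries. In SW480 tumours LRP5 was at 15.9, 20.7 and 23.8 TPM with dnLEF1 and at 16.8, 15.6 and 9.99 TPM with Mock. The 2 lines and all pairs of groups compared overlapped. LRP5L, a partial copy of LRP5 elsewhere in the genome, was at 8.96 to 14.8 TPM in SW620 libraries and at 1.58 to 7.57 TPM in SW480 libraries, and reads shared between the copies make the split between them uncertain.

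LRP6, the co-receptor with the broader embryonic role in the mouse, was at 21.1, 18.8 and 17.4 TPM in the libraries labelled SW620 LRP6KO, against 10.9, 17.8 and 17.5 TPM in SW620 Cas9 libraries. It was at 22.9, 19.1 and 15.1 TPM in SW620 dnLEF1 and 12.98, 20.3 and 14.4 TPM in SW620 Mock libraries. SW480 dnLEF1 libraries held 8.24, 11.1 and 12.6 TPM and SW480 Mock libraries 14.0, 7.75 and 6.02 TPM. SW620 libraries had the higher median, 17.7 TPM against 9.65 TPM in SW480 libraries, but 3 of 6 SW480 libraries lay within the SW620 range. LRP5 exceeded LRP6 in 8 of 12 SW620 libraries and in 6 of 6 SW480 libraries. The LRP6 share of the summed co-receptor TPM had a median of 47.8% in SW620 libraries (35.2% to 57.7%) and 34.8% in SW480 libraries (33.2% to 45.5%).

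**Figure D1:**
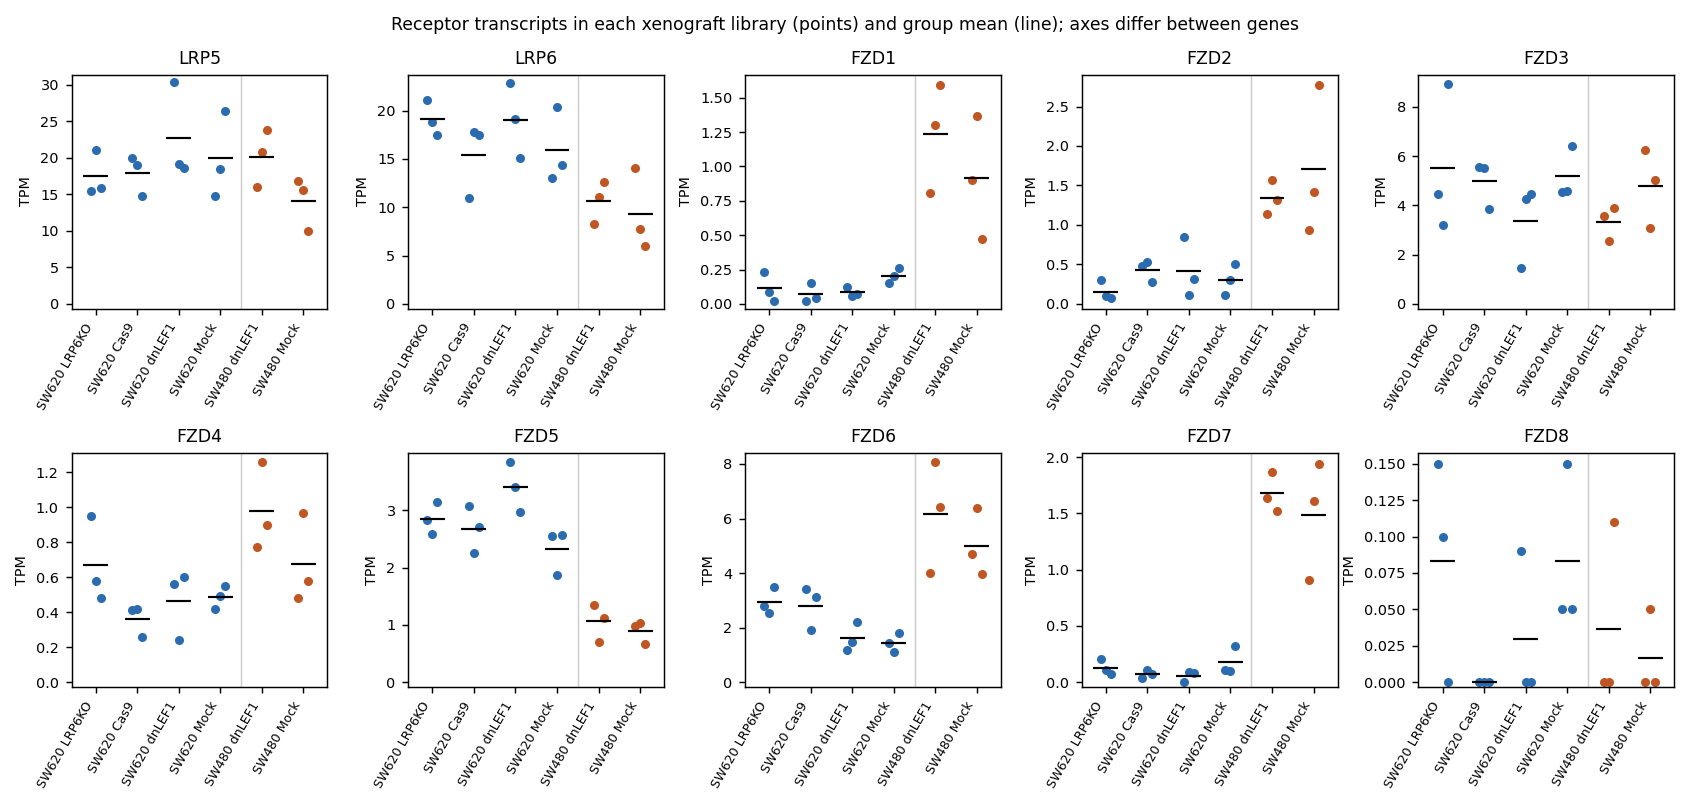
TPM of the 10 receptor genes in each library (points) with the mean of each group of 3 (bars), SW620 groups in blue and SW480 groups in orange, on axes that differ between genes. FZD1, FZD2, FZD6 and FZD7 lie lower in all 12 SW620 libraries than in any of the 6 SW480 libraries, and FZD5 lies higher.

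Among the Frizzleds, FZD3 and FZD6, the members best known for planar polarity and neural development in the mouse, made up 32.5% to 76.6% of the summed FZD1 to FZD8 TPM in SW620 libraries and 57.0% to 72.2% in SW480 libraries. Both lie on the plus strand of chromosome 8, FZD3 from 28494205 to 28574268 and FZD6 from 103298433 to 103332866. FZD3 was at 4.47, 3.19 and 8.94 TPM in SW620 LRP6KO, 5.56, 5.53 and 3.85 in Cas9, 1.44, 4.26 and 4.45 in dnLEF1 and 4.53, 4.58 and 6.42 in Mock libraries. With SW480 cells it was at 3.58, 2.55 and 3.88 TPM in dnLEF1 and 6.24, 3.10 and 5.04 TPM in Mock libraries. Levels of FZD3 overlapped between the lines, and its lowest library was SW620 dnLEF1 replicate 1. FZD6 was at 2.81, 2.53 and 3.5 TPM in SW620 LRP6KO, 3.40, 1.90 and 3.12 in Cas9, 1.19, 1.46 and 2.19 in dnLEF1 and 1.45, 1.10 and 1.81 in Mock libraries. In SW480 it stood at 4.0, 8.06 and 6.44 TPM with dnLEF1 and 4.69, 6.39 and 3.95 TPM with Mock, above every SW620 library. FZD3 therefore exceeded FZD6 in 12 of 12 SW620 libraries but in 2 of 6 SW480 libraries.

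FZD5, a beta-catenin-coupled receptor needed for Paneth cell maturation in the mouse, stood between FZD3 and FZD6 in SW620 libraries by its median of 2.77 TPM, against 1.00 TPM in SW480 libraries. It was at 2.82, 2.59 and 3.15 TPM in SW620 LRP6KO, 3.07, 2.25 and 2.71 in Cas9, 3.84, 3.40 and 2.97 in dnLEF1 and 2.55, 1.87 and 2.56 in Mock libraries. SW480 dnLEF1 libraries held 1.35, 0.71 and 1.12 TPM of it and SW480 Mock libraries 0.98, 1.03 and 0.66 TPM. Every SW620 library was above every SW480 library. FZD5 exceeded FZD6 in 9 of 12 SW620 libraries and in 0 of 6 SW480 libraries.

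The closely related FZD1, FZD2 and FZD7 were low throughout SW620 and higher in SW480. FZD7, a Wnt receptor of mouse intestinal stem cells, was at 0.21, 0.11 and 0.07 TPM in SW620 LRP6KO, 0.04, 0.11 and 0.07 in Cas9, 0, 0.09 and 0.08 in dnLEF1 and 0.11, 0.10 and 0.32 in Mock libraries. It was at 1.64, 1.87 and 1.52 TPM in SW480 dnLEF1 and 0.91, 1.61 and 1.94 TPM in SW480 Mock libraries. The lowest SW480 library was thus above the highest SW620 library. FZD1 ranged from 0.02 to 0.26 TPM in the 12 SW620 libraries, and was at 0.81, 1.30 and 1.59 TPM in SW480 dnLEF1 and 0.90, 1.37 and 0.47 TPM in SW480 Mock libraries. FZD2, which can bind WNT5A, ranged from 0.07 to 0.85 TPM in SW620 libraries, and was at 1.14, 1.57 and 1.32 TPM in SW480 dnLEF1 and 0.94, 1.42 and 2.77 TPM in SW480 Mock libraries. Both again separated the lines, FZD2 by the narrower margin.

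The 2 untested members were scarce. FZD4, which is also the receptor for Norrin in retinal vessels, was at 0.24 to 0.95 TPM in SW620 libraries and 0.48 to 1.26 TPM in SW480 libraries, and the lines overlapped. FZD8, the relative of FZD5, was listed at 0 in 10 of 18 libraries and did not exceed 0.15 TPM in any.

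Ranked by group mean, LRP5 led and LRP6 followed in 5 of 6 groups, and LRP6 led in SW620 LRP6KO; the libraries of the pair overlapped except in SW480 dnLEF1. FZD3 came next in SW620 LRP6KO, Cas9 and Mock tumours and FZD5 in SW620 dnLEF1 tumours, where it overlapped FZD3, whereas FZD6 came next in both SW480 groups. In SW480 Mock tumours FZD6 and FZD3 overlapped, and so did each neighbour among FZD2, FZD7, FZD1, FZD5 and FZD4. FZD1 to FZD8 summed to a median of 10.5 TPM in SW620 libraries (8.09 to 16.2) and 15.7 TPM in SW480 libraries (13.3 to 17.3). FZD5 had a median of 24.9% of that sum in SW620 libraries and 6.47% in SW480 libraries, and FZD7 had 0.973% and 10.4% in the same order of lines. The ratio of summed LRP5 and LRP6 to summed FZD1 to FZD8 TPM had a median of 3.21 in SW620 libraries and 1.83 in SW480 libraries. These sums leave out FZD9 and FZD10, so they are not totals of all Frizzleds. FZD10 was at 2.65 to 5.44 TPM in SW620 and 0.98 to 1.71 TPM in SW480 libraries. FZD9 was at 0.06 to 0.54 TPM in SW620 and 0.42 to 2.98 TPM in SW480 libraries. Among FZD1 to FZD8, FZD3 was the highest in 11 of 12 SW620 libraries and FZD5 in the other, SW620 dnLEF1 replicate 1.

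**Figure D2:**
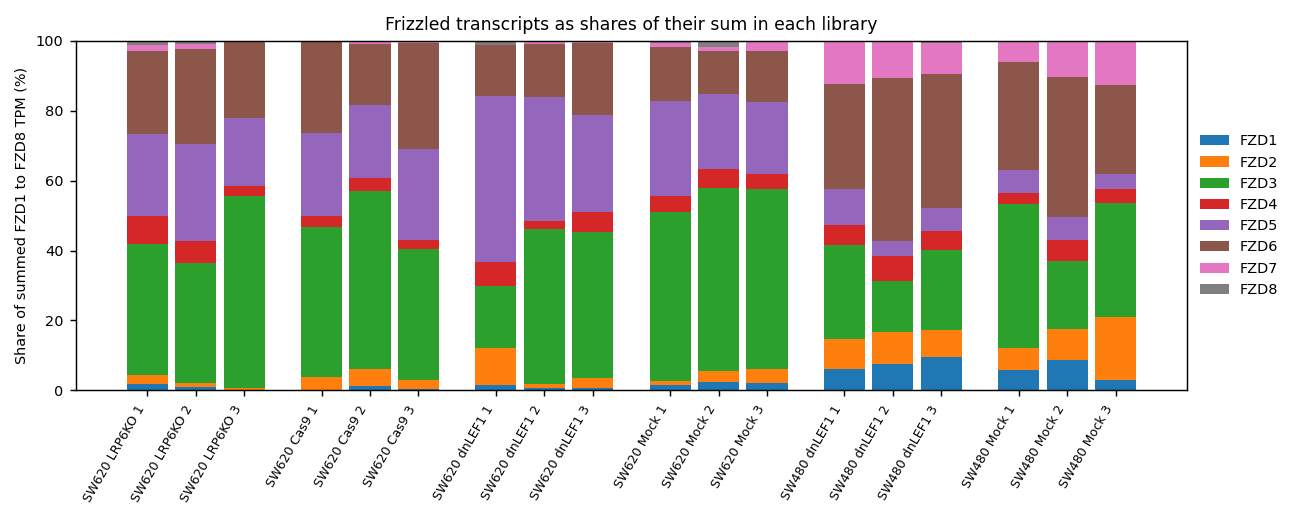
Share of each Frizzled gene in the summed FZD1 to FZD8 TPM of each library, in percent, with 1 bar per library. FZD5 takes 19.4% to 47.5% of each SW620 bar and 4.10% to 10.2% of each SW480 bar, and FZD1 and FZD7 are wider in every SW480 bar than in any SW620 bar, while FZD2 shares overlap between the lines.

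SW620 Mock and SW480 Mock tumours were compared with limma on log2(TPM + 1), with Benjamini-Hochberg adjustment over all 22981 genes, and a gene was called at an adjusted p under 0.05. A fold on this scale understates the change of genes near or below 1 TPM. FZD5 rose in SW620 Mock tumours and FZD2, FZD6 and FZD7 fell, so 4 of the 8 receptor genes tested were called, against 23.9% of all genes tested (10.9% higher and 12.9% lower). FZD1, FZD2 and FZD7 entered the test only through SW480 libraries, so nothing is read from this count or from the other counts between the lines. FZD5 averaged 2.33 ± 0.39 TPM in SW620 Mock tumours and 0.89 ± 0.20 TPM in SW480 Mock tumours (SD, n = 3 each), a log2 difference of 0.81 (SE 0.21, limma adjusted p = 0.00901). FZD6 averaged 1.45 ± 0.36 TPM in SW620 Mock and 5.01 ± 1.25 TPM in SW480 Mock tumours, and its log2 level fell by 1.28 (SE 0.27, limma adjusted p = 0.00192). FZD7 fell by 1.06 on the log2 scale (SE 0.22, limma adjusted p = 0.00213) and FZD2 by 1.01 (SE 0.28, limma adjusted p = 0.0135).

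The other members did not pass between the Mock groups. LRP6 averaged 15.9 ± 3.92 TPM in SW620 Mock and 9.26 ± 4.21 TPM in SW480 Mock tumours, a log2 difference of 0.77 with a 95% interval of 0.19 to 1.35 (limma adjusted p = 0.0524). FZD1 differed by -0.64 (interval -1.15 to -0.14, limma adjusted p = 0.0621), although its groups did not overlap. LRP5 differed by 0.46 (interval -0.08 to 1.00, limma adjusted p = 0.224) and FZD3 by 0.12 (interval -0.62 to 0.86, limma adjusted p = 0.850). In all, FZD5 was higher and FZD1, FZD2, FZD6 and FZD7 were lower without overlap, 5 of 8 against 35.4% of all genes tested (15.7% higher and 19.7% lower); of these, FZD1, FZD2 and FZD7 are the genes that entered through SW480.

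Some calls turned on the libraries used. When the mean of all 12 SW620 libraries was set against that of all 6 SW480 libraries, a comparison added after the data were seen in which the modified tumours count with the controls, 6 of 8 were called, against 45.2% of genes tested, with the same 3 genes among them. LRP6 then rose by 0.77 (SE 0.17, limma adjusted p = 0.00132) and FZD1 fell by 0.87 (SE 0.15, limma adjusted p = 1.21e-04), while LRP5 (adjusted p = 0.337) and FZD3 (adjusted p = 0.572) did not pass. Across those libraries FZD5 was higher and FZD1, FZD2, FZD6 and FZD7 were lower without overlap, which held for 15.0% of all genes tested (6.27% higher and 8.76% lower). With only the Mock libraries in the fit, FZD6 alone was called, against 22.7% of genes tested in that fit, FZD5 had an adjusted p of 0.0786, and FZD1, FZD2 and FZD7 were below the filter. The FZD2 call was lost without SW620 Mock replicate 1 (adjusted p = 0.0609) or SW480 Mock replicate 3 (adjusted p = 0.0678). LRP6 passed without SW480 Mock replicate 1 (adjusted p = 0.00664) or with libraries rescaled by median ratio (adjusted p = 0.0257), and FZD1 passed without SW480 Mock replicate 3 (adjusted p = 0.0280).

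The summed stroma markers were at 27.6 to 28.4 TPM in SW620 Mock and 25.4 to 54.6 TPM in SW480 Mock tumours. Of 13 tested markers 3 were called higher and 1 lower in SW620 Mock, beside 10.9% higher and 12.9% lower among all genes tested. The list median was -0.26 against -0.14 over all genes tested, and 3 of the 13 differences were above 0. LUM reached 1 TPM in SW620 libraries only and entered the test through them, so nothing is read from this count. LUM averaged 8.58 ± 1.56 TPM in SW620 Mock tumours and was listed at 0 in SW480 Mock tumours. DES averaged 2.68 ± 0.18 TPM in SW620 Mock and 11.3 ± 0.79 TPM in SW480 Mock tumours. Fibroblast markers did not go 1 way. Besides LUM, PDGFRB averaged 2.07 TPM in SW620 Mock and 0.47 TPM in SW480 Mock tumours. COL1A1 averaged 2.82 and 5.12 TPM, and DCN 0.19 and 1.30 TPM, in the same order of groups. The part of these transcripts in the receptor differences was not tested.

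**Figure D3:**
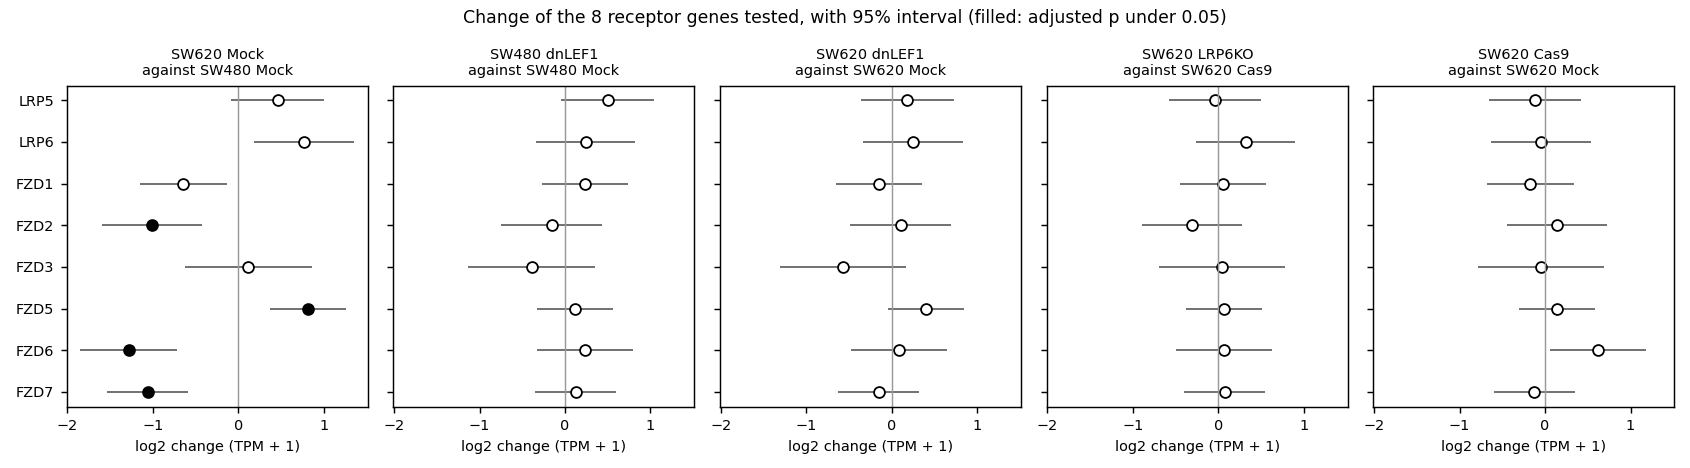
Difference in log2(TPM + 1) with its 95% interval for the 8 receptor genes tested in each of 5 comparisons, the group named first minus the group named second; filled points passed an adjusted p under 0.05 (limma). The only filled points are FZD2, FZD5, FZD6 and FZD7 between SW620 Mock and SW480 Mock.

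The libraries labelled LRP6KO did not hold less LRP6 transcript than Cas9 libraries. LRP6 averaged 19.1 ± 1.86 TPM in SW620 LRP6KO tumours and 15.4 ± 3.89 TPM in SW620 Cas9 tumours, a log2 difference of 0.32 (interval -0.26 to 0.90, limma adjusted p = 1). Sorting was on LRP6 protein, which gene-level transcript does not measure, so these values do not check the label. None of the 8 receptor genes was called, and none had an unadjusted p under 0.05, against 0% of all genes called by limma and 766 of 22981 with an unadjusted p under 0.05. LRP5, the remaining co-receptor, averaged 17.5 ± 3.14 TPM in SW620 LRP6KO and 17.9 ± 2.81 TPM in SW620 Cas9 tumours (log2 difference -0.04, interval -0.58 to 0.50). The Frizzled differences lay between -0.31 for FZD2 and 0.07 for FZD7, and their intervals reached from -0.90 to 0.79. No tested member was free of overlap, compared with 9.67% of genes tested. FZD4, untested, was at 0.48 to 0.95 TPM in SW620 LRP6KO and 0.26 to 0.42 TPM in SW620 Cas9 tumours, without overlap.

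In the dnLEF1 comparisons no receptor gene was called. SW480 dnLEF1 against SW480 Mock tumours gave 0 of 8, with 0 of 8 at an unadjusted p under 0.05, against 2.23% of all genes called by limma. LRP5 was closest, at 20.2 ± 3.95 TPM in SW480 dnLEF1 and 14.1 ± 3.63 TPM in SW480 Mock tumours, a log2 difference of 0.50 (interval -0.04 to 1.04, limma adjusted p = 0.386). FZD3 differed by -0.39 (interval -1.13 to 0.35), and LRP6 by 0.24 (interval -0.34 to 0.82). No receptor gene was free of overlap there, compared with 11.7% of genes tested.

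SW620 dnLEF1 against SW620 Mock tumours also gave 0 of 8, with 0 of 8 at an unadjusted p under 0.05, against 0.165% of all genes called by limma. FZD5 averaged 3.40 ± 0.44 TPM in SW620 dnLEF1 and 2.33 ± 0.39 TPM in SW620 Mock tumours, a log2 difference of 0.41 (interval -0.04 to 0.85, limma adjusted p = 0.665). FZD3 averaged 3.38 ± 1.69 TPM in SW620 dnLEF1 and 5.18 ± 1.08 TPM in SW620 Mock tumours, a log2 difference of -0.57 (interval -1.31 to 0.17, limma adjusted p = 0.713). Each library of FZD5 was higher, and each of FZD1, FZD3 and FZD7 lower, than any SW620 Mock library, 4 of 8 genes against 20.9% of genes tested (4.49% higher and 16.4% lower). FZD1 and FZD7 were below 1 TPM in every SW620 library and entered the test through SW480 libraries only. Nothing is read from this count. Over all genes tested the median difference in this comparison was -0.12, and -0.0010 after median-ratio rescaling.

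The response to dnLEF1 was also compared between the lines as SW620 minus SW480. Receptor genes called numbered 0 of 8, with 0 at an unadjusted p under 0.05, against 0.718% of all genes called by limma. The differences of response lay between -0.39 for FZD1 and 0.29 for FZD5, with intervals that reached from -1.23 to 1.09.

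Cas9 and Mock, the 2 SW620 control groups, differed in no called receptor gene, against 0% of all genes called by limma and 1154 genes with an unadjusted p under 0.05. FZD6 alone had an unadjusted p under 0.05. It averaged 2.81 ± 0.80 TPM in SW620 Cas9 and 1.45 ± 0.36 TPM in SW620 Mock tumours, a log2 difference of 0.62 (interval 0.06 to 1.19, limma adjusted p = 0.942), and its groups did not overlap, which held for 14.2% of genes tested. LRP6 differed by -0.05 (interval -0.63 to 0.54) and LRP5 by -0.12 (interval -0.66 to 0.42).

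Genes that act on or beside the receptors were set beside them by list. Between SW620 Mock and SW480 Mock tumours, 6 of the 63 genes tested in these lists rose and 15 fell, beside 10.9% higher and 12.9% lower among all genes tested. Of the genes named below, WNT5A, WNT9A and ROR2 reached 1 TPM in SW480 libraries only, and LGR5 in SW620 libraries only. They entered the test through the line where they were high, so nothing is read from the list counts between the lines. Of the 4 genes for Frizzled ubiquitin ligases and deubiquitinases, 0 rose and 1 fell in SW620 Mock against SW480 Mock tumours, with a list median of -0.45 against -0.14 over all genes tested. It was RNF43, which removes Frizzleds from the surface and averaged 18.8 ± 3.10 TPM in SW620 Mock and 90.4 ± 22.9 TPM in SW480 Mock tumours (log2 difference -2.19, limma adjusted p = 3.43e-06). Of 3 tested R-spondin and LGR genes, 1 rose and 0 fell (median -0.02): LGR5, an R-spondin receptor and intestinal stem cell marker, averaged 6.53 ± 2.48 TPM in SW620 Mock and 0.13 ± 0.12 TPM in SW480 Mock tumours (limma adjusted p = 1.19e-06).

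Among 7 other Wnt receptors tested, 1 rose and 2 fell (median -0.87). FZD10 rose, to 4.85 ± 0.57 TPM in SW620 Mock against 1.28 ± 0.38 TPM in SW480 Mock tumours (limma adjusted p = 2.06e-04), a level above that of FZD5 in both groups. ROR2, a receptor for WNT5A, fell to 0.16 ± 0.10 TPM in SW620 Mock against 10.9 ± 3.40 TPM in SW480 Mock tumours (limma adjusted p = 7.32e-08). PTK7, a pseudokinase of planar polarity, fell to 38.8 ± 3.11 TPM in SW620 Mock against 92.5 ± 19.9 TPM in SW480 Mock tumours (limma adjusted p = 1.50e-04).

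Of 12 Wnt ligands tested, 0 rose and 5 fell in SW620 Mock tumours (median -0.47). The 3 with the smallest p were WNT5A, WNT9A and WNT5B. WNT5A averaged 0.22 ± 0.35 TPM in SW620 Mock and 14.7 ± 2.49 TPM in SW480 Mock tumours (limma adjusted p = 1.78e-08). WNT5B averaged 1.41 ± 1.08 TPM in SW620 Mock and 13.2 ± 2.48 TPM in SW480 Mock tumours (limma adjusted p = 6.96e-05). Both encode Wnts best known for signalling without beta-catenin.

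Of 5 tested genes for Wnt secretion, receptor folding and Wnt inactivation, 1 rose and 2 fell (median 0.17). WLS, which carries Wnts to the surface, fell to 8.22 ± 0.35 TPM in SW620 Mock against 17.2 ± 3.64 TPM in SW480 Mock tumours (limma adjusted p = 0.00402). TRABD2A, a protease that inactivates Wnts, also fell (log2 difference -1.16, limma adjusted p = 0.00348), and NOTUM, which removes their lipid, rose (log2 difference 1.02, limma adjusted p = 0.0406). The NOTUM call was lost without SW480 Mock replicate 1, where the difference was 0.60 (limma adjusted p = 0.193), without SW480 Mock replicate 2 (0.0666) or without any 1 SW620 Mock library (0.0539 to 0.133), and with no filter (0.0823), only the groups compared (0.0889), the replicate block (0.0609) or without the 2 libraries with the most genes above 0 (0.0747).

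Among 8 secreted antagonists and kremens tested, 2 rose and 2 fell (median -0.03). DKK1, which binds LRP5 and LRP6 and blocks their use by Wnts, averaged 29.3 ± 10.0 TPM in SW620 Mock and 10.0 ± 2.62 TPM in SW480 Mock tumours (limma adjusted p = 2.83e-04). DKK4, of the same family, was at 0.87 to 2.10 TPM in SW620 Mock and 564 to 1699 TPM in SW480 Mock tumours (log2 difference -8.62, limma adjusted p = 4.75e-10). DKK3 fell by 1.45 on the log2 scale (limma adjusted p = 0.00104). Of 15 receptor-proximal signalling genes, 1 rose and 3 fell (median -0.17), among them beta-catenin (CTNNB1, log2 difference -1.24, limma adjusted p = 4.30e-04), the feedback inhibitor AXIN2 (-1.07, limma adjusted p = 4.87e-04) and the Dishevelled gene DVL3 (-0.93, limma adjusted p = 0.00221). None of the 9 other LDL receptor family genes tested was called by limma in any comparison.

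**Figure D4:**
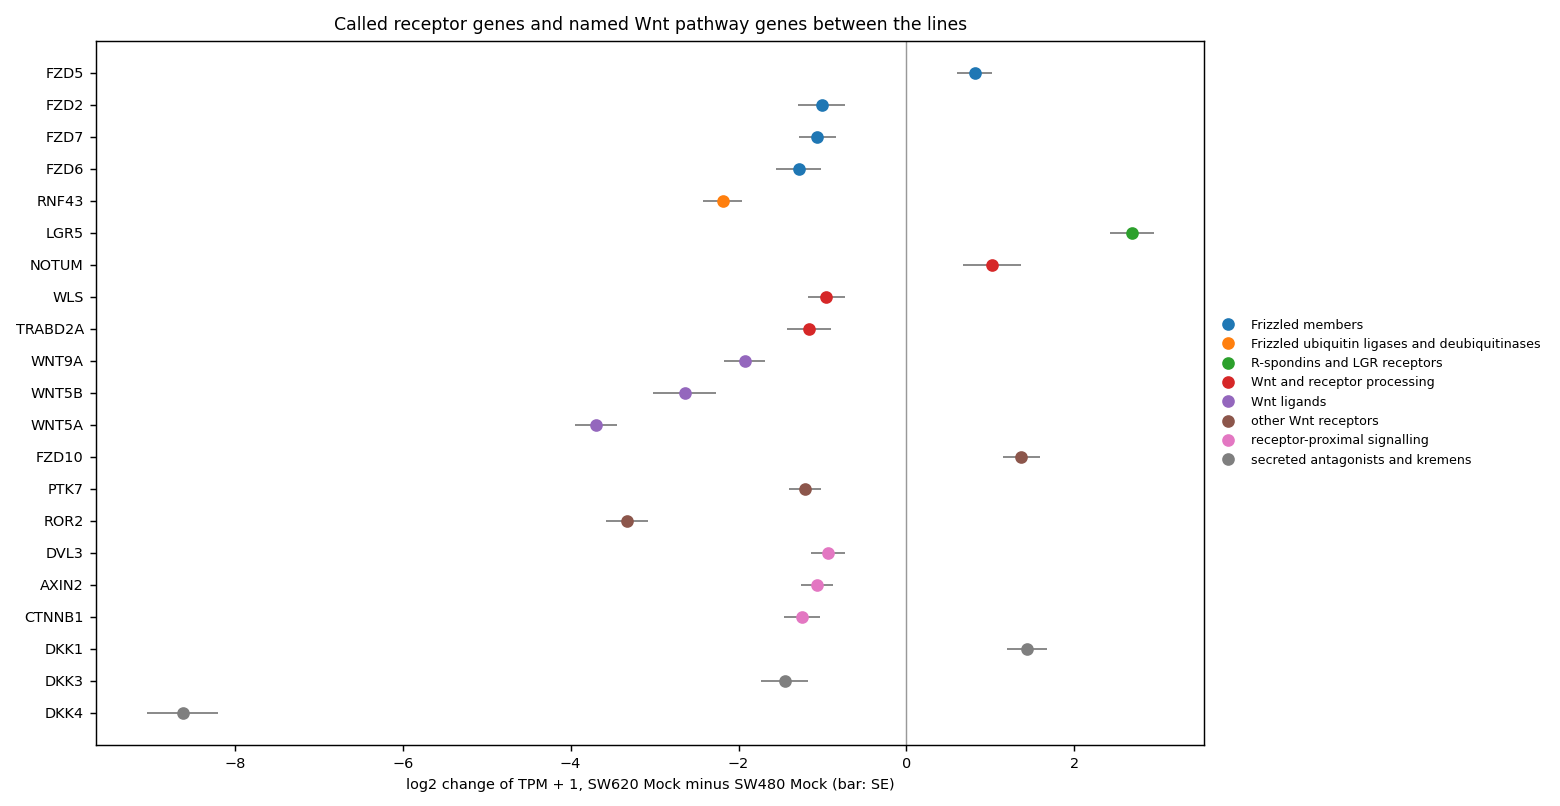
Difference in log2(TPM + 1) between SW620 Mock and SW480 Mock tumours (points, with SE bars), SW620 minus SW480, for the receptor genes called and the up to 3 called genes of each Wnt list with the smallest p, coloured by list. FZD5, LGR5, FZD10, NOTUM and DKK1 lie above 0, and DKK4 lies lowest at -8.62.

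In SW480 dnLEF1 against SW480 Mock tumours, 1 of the 63 genes in these lists rose and 3 fell, beside 2.23% of all genes called. Among them 1 of 7 other Wnt receptors rose: GPC4, a cell-surface glypican, averaged 11.0 ± 2.17 TPM in SW480 dnLEF1 and 4.49 ± 0.88 TPM in SW480 Mock tumours (limma adjusted p = 0.00558). WNT6 (1.26 ± 0.62 TPM in SW480 dnLEF1 and 6.68 ± 2.07 TPM in SW480 Mock tumours, limma adjusted p = 0.00674) was the only one of 12 ligands called, and it fell. AXIN2 fell to 29.3 ± 3.43 TPM in SW480 dnLEF1 against 57.2 ± 7.85 TPM in SW480 Mock tumours (limma adjusted p = 0.0147), the only call among 15 receptor-proximal genes. DKK1 fell to 4.11 ± 0.92 TPM in SW480 dnLEF1 against 10.0 ± 2.62 TPM in SW480 Mock tumours (limma adjusted p = 0.0221), the only call among 8 antagonists. With only the groups compared in the fit all 4 calls were lost (limma adjusted p = 0.277 for GPC4, 0.174 for WNT6, 0.224 for AXIN2 and 0.339 for DKK1). Without SW480 dnLEF1 replicate 2, AXIN2 (0.0646) and DKK1 (0.101) were lost, and DKK1 also without SW480 Mock replicate 1 (0.0963). With array weights AXIN2 (0.0864) and DKK1 (0.0774) were lost too. In SW620 dnLEF1 against SW620 Mock, SW620 LRP6KO against SW620 Cas9 and SW620 Cas9 against SW620 Mock tumours, none of the genes in these Wnt lists was called by limma. DKK1, though not called, was at 9.23 to 13.4 TPM in SW620 LRP6KO and 24.5 to 30.5 TPM in SW620 Cas9 libraries. WLS and PORCN were also lower in SW620 LRP6KO than in SW620 Cas9 libraries without overlap. Such separation, in either direction, held for 9.67% of all genes tested.

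The genes whose profiles over the 18 libraries lay closest to a receptor gene were found by the root mean square difference of centred log2(TPM + 1) values, where 0 is an identical profile. For LRP6 they were SEPHS1 at 0.206, DUSP4 at 0.245 and FAM192A at 0.249, while LRP6 itself varied by 0.482 about its own mean. For LRP5, which varied by 0.332, they were WASH2P at 0.209, ZMIZ1 at 0.221 and NFIL3 at 0.234. WASH2P has near-identical copies, so its level is uncertain. For FZD3, the Frizzled with the highest mean, they were NDE1 at 0.306, AC120024.1 at 0.309 and RAB11A at 0.312, not far below the 0.435 by which FZD3 varied about its own mean. SEPHS1 averaged 30.6 TPM in SW620 libraries and 17.1 TPM in SW480 libraries, and LRP6 17.4 TPM and 9.96 TPM in the same order of lines.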

How the data were processed

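The authors deposited TPM values per human gene for 18 xenograft libraries in 1 table. Per the submitters' processing notes, Trimmomatic 0.35, Bowtie 1.2 and RSEM 1.2.31 were used with hg38 and mm10, with no further detail given in the sources used here. TPM is scaled to the human transcripts of each library and keeps no depth. RNA with an integrity number below the submitters' limit was not sequenced, per the labels' protocols. The mouse table, which also covers caecum from 3 mice given PBS, was not analysed here.

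Of 58381 human identifiers, 58261 matched a GENCODE release 29 symbol by identifier without version. The 45 second copies of pseudoautosomal genes, all at 0, were left out. A gene was tested if 3 or more libraries reached 1 TPM. Group means of log2(TPM + 1) over all 6 groups were fitted with limma 3.58.1 under R 4.3.3 (eBayes with trend), and p-values were adjusted by Benjamini-Hochberg within each comparison, with a threshold of 0.05. The script was tested on simulated data. Summaries used Python 3.11.15, pandas 2.3.3, numpy 2.4.6 and matplotlib 3.10.9. No pair of libraries held identical values.

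The receptor genes and the pathway lists were chosen with earlier results of these data known. All receptor genes are named, with up to 3 called genes per list and comparison by smallest p, and the 3 genes most alike in profile to LRP6, LRP5 and the most abundant Frizzled. RefSeq promoter sequence (GRCh38.p14) was matched by symbol and is described for 5 of the 10 receptor genes. Chromosome 8, which holds FZD3 and FZD6, was left out of this match. Alternatives were a pseudocount of 0.1, no filter, median-ratio scaling, only the groups compared in the fit, array weights, a replicate block and leaving out each library. Chosen after seeing the data were a fit over all libraries of each line and 1 without the 2 libraries with the most genes above 0.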

Additional observations from a re-analysis of the deposited data

Results flagged for a closer look

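DKK1, the antagonist of LRP5 and LRP6, differed in opposite directions with dnLEF1 in the 2 lines, without overlap in either. It was at 53.1, 59.2 and 50.3 TPM in SW620 dnLEF1 and 39.8, 19.9 and 28.1 TPM in SW620 Mock libraries, and at 4.46, 3.06 and 4.80 TPM in SW480 dnLEF1 and 12.9, 7.75 and 9.40 TPM in SW480 Mock libraries. The response in SW620 minus that in SW480 was 2.02 on the log2 scale (SE 0.34, limma adjusted p = 0.00952), and over the alternatives run the adjusted p ranged from 0.00570 to 0.0568. The fall in SW480 passed the test (limma adjusted p = 0.0221, lost in some of the alternatives), whereas the difference in SW620 did not (limma adjusted p = 0.210).

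PDGFRB, a fibroblast and pericyte marker, also differed in opposite directions without overlap, though it passed the test in neither line: it was at 0.55, 0.48 and 0.64 TPM in SW620 dnLEF1 and 2.38, 2.68 and 1.14 TPM in SW620 Mock libraries, and at 1.25, 0.92 and 1.00 TPM in SW480 dnLEF1 and 0.56, 0.76 and 0.10 TPM in SW480 Mock libraries. The difference of its responses was -1.45 (SE 0.39), which did not pass (limma adjusted p = 0.107). Of all genes tested, 1.41% differed in opposite directions without overlap in the 2 lines.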

How the results depend on the processing

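The lack of depth in TPM and 3 libraries a group limit the low genes most: a log2 change below about 1 TPM rests on the pseudocount. The count of receptor genes called between SW620 Mock and SW480 Mock tumours was within 1.5 times of 4 in every alternative run except the fit of only the groups compared, which called 1. In the other comparisons it stayed at 0 under every alternative. The sign of the FZD1, FZD2, FZD5, FZD6 and FZD7 differences between the lines held in every alternative that tested them. FZD5 and FZD6 were tested in all 14 alternatives, FZD2 and FZD7 in 13 and FZD1 in 11.

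Counts over all genes moved more. SW480 dnLEF1 against Mock gave 512, but 333 with a pseudocount of 0.1, 29 with only the groups compared, 261 with array weights and 258 to 1214 without 1 library. SW620 dnLEF1 against Mock gave 38, but 21, 120 and 394 under the same settings and 17 to 26 without 1 library. SW620 LRP6KO against Cas9 gave 0, but 10 with only the groups compared and 1 with array weights. SW620 Cas9 against Mock gave 0, but 1 with no filter, 8 with only the groups compared, 101 with array weights and 0 to 1 without 1 library. The lines gave 5483, but 10391 with all libraries of each line. The difference of dnLEF1 responses gave 165, but 108 with median-ratio scaling, 43 with only the groups compared, 358 with array weights, 319 without the 2 libraries with the most genes above 0 and 66 to 801 without 1 library. Median-ratio scaling changed the split of higher and lower calls, from 311 and 201 to 190 and 225 in SW480 dnLEF1, from 13 and 25 to 21 and 17 in SW620 dnLEF1, and from 41 and 124 to 54 and 54 in the difference of responses, whose median over all genes moved from -0.17 to 0.02.

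Some small receptor differences, all uncalled, changed sign, and the cause was not tested. In SW620 LRP6KO against Cas9, LRP5 became 0.094 with array weights and 0.037 without the 2 libraries, FZD3 -0.0052 with median-ratio scaling and FZD6 -0.033 with array weights. FZD2 became -0.048 with array weights in SW620 dnLEF1 against Mock, and FZD3 -0.11 between the lines without the 2 libraries. In the difference of responses, LRP6 became -0.0045 with a pseudocount of 0.1, FZD2 -0.012 with array weights, FZD6 0.048 with median-ratio scaling, and FZD3 0.030, 0.062 and 0.052 with median-ratio scaling, with array weights and without the 2 libraries.

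Leaving out 1 library at a time, the values spanned 0 for FZD2 (-0.37 to 0.11) and FZD7 (-0.052 to 0.26) in SW480 dnLEF1 against Mock, and for LRP5 (-0.035 to 0.40), FZD2 (-0.10 to 0.27) and FZD6 (-0.070 to 0.20) in SW620 dnLEF1 against Mock. In SW620 LRP6KO against Cas9 they spanned 0 for LRP5 (-0.17 to 0.044), FZD1 (-0.019 to 0.12), FZD3 (-0.31 to 0.32), FZD5 (-0.015 to 0.15) and FZD6 (-0.12 to 0.18). In SW620 Cas9 against Mock they did so for LRP5 (-0.30 to 0.099), LRP6 (-0.17 to 0.17) and FZD3 (-0.12 to 0.097), between the lines for FZD3 (-0.11 to 0.30), and in the difference of responses for LRP6 (-0.30 to 0.25), FZD2 (-0.0044 to 0.47), FZD3 (-0.38 to 0.20) and FZD6 (-0.39 to 0.042).

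Same-numbered libraries did not deviate together: correlations of deviations ran from -0.133 to 0.117, with 1 of 15 over 0.1, so the numbers are not taken as a pairing. With the replicate block, 4 receptor genes were called between the lines and 0 in each other comparison, and the counts over all genes were 417 and 32 for dnLEF1 in SW480 and SW620, 0 for LRP6KO, 0 for Cas9, 5196 between the lines and 144 for the difference of responses.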
